A study of Mus musculus with 2 samples.

Results

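Genes of the NF-kB pathway were followed in spleen cells of control and tumour-bearing mice. They were the subunit genes Nfkb1, Nfkb2, Rel and Relb and the IkB family genes Nfkbia and Nfkbiz. The others were the feedback and target genes Tnfaip3, Tnfaip2 and Zfp36, and the cytokine gene Tnf. The rule that names these 10 genes uses no measured value, although it was written with earlier results of these data known, and all 10 were found among the 27998 genes of the files. Cells positive for the surface proteins CD11b and Gr1 had been sorted from spleen suspensions and sequenced as droplet single-cell 3′ libraries. The WT library pooled 5 control mice of the FVB/n strain, and the PyMT library pooled 3 tumour-bearing mice whose strain is labelled PYMT, the name of the mammary tumour model driven by the polyoma middle T antigen. Age and tumour stage are not given in the labels.

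Each condition is 1 library of pooled mice, so no difference between conditions has a replicate check and none was tested. The 95% intervals cover counting error only. The WT library held 5491 cells with 42542700 unique molecular identifiers (UMIs, counts of captured RNA molecules), and the PyMT library held 9155 cells with 73435307 UMIs. Cells were put into classes by a few marker genes that are not among the 10. Neutrophil-like cells drew at least 10% of their UMIs from S100a8 and S100a9 and had under 2 UMIs of the B cell genes Cd79a and Cd79b. They numbered 3980 in WT and 5489 in PyMT. Monocyte-like cells drew under 5% from S100a8 and S100a9 and had at least 2 UMIs of Csf1r and Ccr2, which held for 601 and 1597 cells. B cell-like cells drew under 5% from S100a8 and S100a9 and had at least 3 UMIs of Cd79a and Cd79b, which held for 375 and 1152 cells. B cell-like cells made up 6.83% of the WT and 12.6% of the PyMT library although the sort was for CD11b and Gr1, and 606 and 988 cells fell in no class. Of the B cell-like cells, 18.9% in WT and 6.16% in PyMT also met the monocyte rule. Neutrophil-like cells were split by the share of their UMIs that came from Camp, a secondary granule gene that falls as neutrophils mature. Camp-high cells had at least 4% Camp, Camp-low cells under 1%, and Camp-mid cells lay between. Their numbers were 3456, 468 and 56 in WT and 1619, 1812 and 2058 in PyMT, so the Camp-low comparison rests on 56 WT cells. These are ranges of a marker share rather than cell types. Median UMIs per cell were 5630 and 8285 in neutrophil-like, 5724 and 7449 in monocyte-like and 4003 and 3506.5 in B cell-like cells of WT and PyMT. The libraries shared 72 cell barcodes.

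NF-kB is a family of transcription factors that form pairs. Nfkb1 and Nfkb2 encode the precursors p105 and p100 of the subunits p50 and p52, while Rel and Relb encode c-Rel and RelB. In resting cells the pairs are held in the cytoplasm by inhibitors such as IkB alpha, the product of Nfkbia, and signals from cytokine and pattern recognition receptors remove that inhibitor. The freed factors raise the transcription of inflammatory genes and of their own inhibitors, which is why several of the genes described here are both targets and brakes of the pathway.

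Among the 10 genes, 7 had a promoter in the RefSeq table (build GRCm38.p6), which did not list Nfkb1, Nfkbiz or Relb. The NF-kB consensus decamer was searched on both strands in the 250 bases before each start site. It was found for 4 of the 7 genes, Nfkbia, Rel, Nfkb2 and Tnfaip3, where 4.46% of the 27025 genes in the table had a match in any of their promoters. Of all 32851 promoters of the same length 3.90% had a match. A match describes the sequence and is not evidence of binding. The upstream sequences of Nfkbia (chr12:55492648-55492897, minus strand) and Rel (chr11:23770971-23771219, minus strand) are shown because these genes carry the match outside annotated exons and were both lower in PyMT monocyte-like cells. For Tnfaip3 (chr10:19015411-19015440, minus strand) and Nfkb2 (chr19:46304688-46304717, plus strand) only 30 bases around one of their matches are given. All run 5′ to 3′, with the matching bases in capitals.
Nfkbia: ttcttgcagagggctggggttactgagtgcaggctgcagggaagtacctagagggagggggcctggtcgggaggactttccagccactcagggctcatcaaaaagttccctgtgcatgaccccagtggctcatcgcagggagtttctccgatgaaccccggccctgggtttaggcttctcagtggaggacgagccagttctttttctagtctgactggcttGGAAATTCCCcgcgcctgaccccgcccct
Rel: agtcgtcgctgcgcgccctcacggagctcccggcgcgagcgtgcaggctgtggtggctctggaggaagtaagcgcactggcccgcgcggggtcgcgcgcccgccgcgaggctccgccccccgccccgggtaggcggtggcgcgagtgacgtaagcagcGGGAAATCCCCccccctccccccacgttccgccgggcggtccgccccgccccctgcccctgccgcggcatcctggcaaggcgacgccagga
Tnfaip3: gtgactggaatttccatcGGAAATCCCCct
Nfkb2: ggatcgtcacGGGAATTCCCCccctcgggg
The capitals of Rel and Nfkb2 span overlapping matches. In Nfkbia the match began 29 bases before the start site and in Rel 92 bases before it. No match lay in the windows of Tnf, Tnfaip2 and Zfp36, which says only that these letters are not there.

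Levels are given as CPM, the UMIs of a gene in a class of cells scaled to a fixed total of UMIs in that class and library. A log2 ratio is PyMT over WT. A gene was called higher or lower where it had at least 50 UMIs in the sums compared and differed at least 1.5-fold. The levels of the 10 genes in every class, with the 2 libraries side by side, are plotted first.

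**Figure D1:**
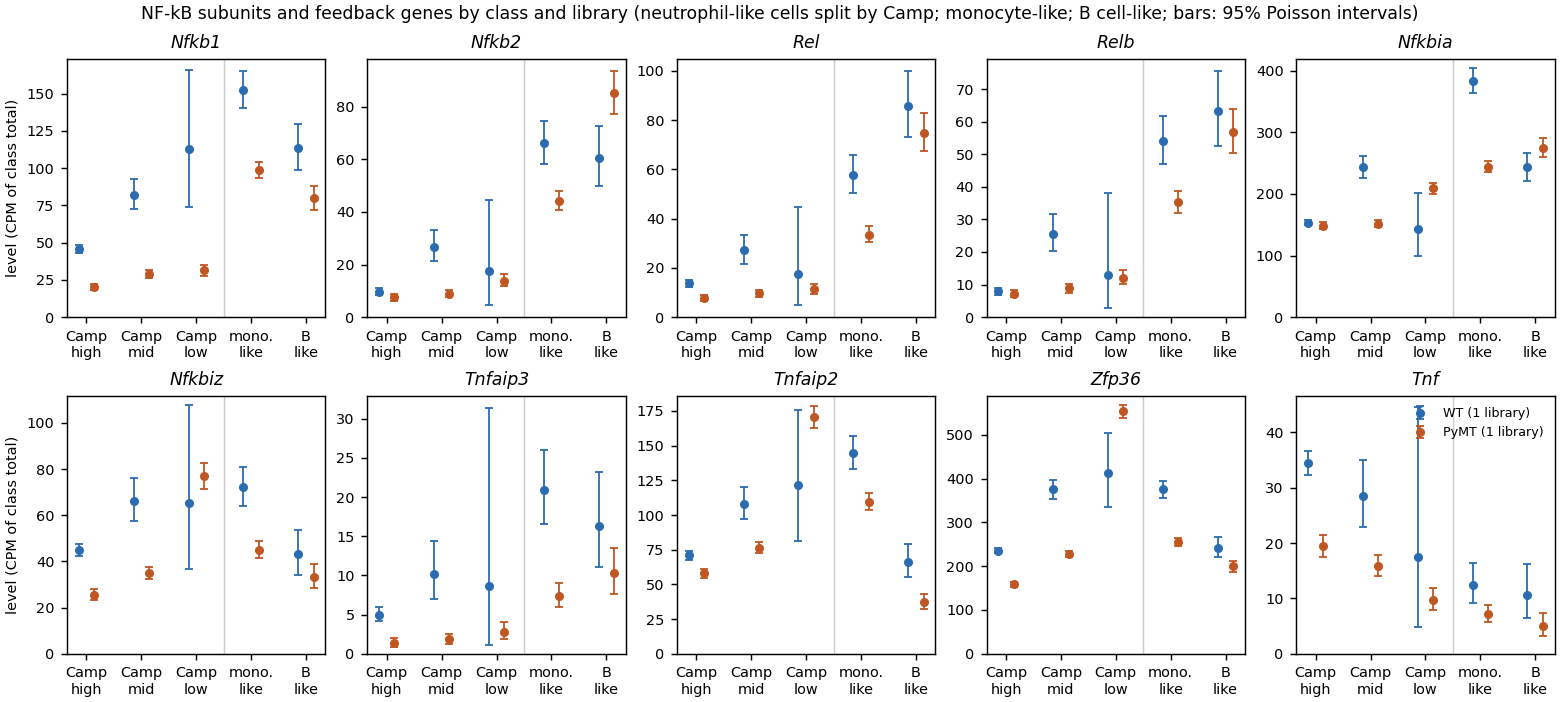
Level of each gene in CPM of the class total (y axis, from 0) in Camp-high, Camp-mid and Camp-low neutrophil-like cells, monocyte-like and B cell-like cells (x axis), for the WT and PyMT library. Points are single libraries and bars are 95% Poisson intervals; in monocyte-like cells every PyMT point lies below its WT point, and Tnf is the gene whose highest points are Camp-high cells.

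In monocyte-like cells all 10 genes had a lower level in PyMT than in WT, with log2 ratios between -1.50 and -0.40 and a median of -0.64. At least 1.5-fold lower were 7 of the 10 genes and 0 were higher, where 9.06% of the 9031 genes tested in this class were lower and 7.84% higher and the median gene lay at 0.01.

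The subunit genes were lower by similar amounts. Nfkb1 (chr3:135584655-135691547 on GRCm38, minus strand) was at 152 CPM in WT and 98.5 CPM in PyMT, and the log2 ratio was -0.63 (-0.77 to -0.48). Rel (chr11:23736847-23770970) was at 57.8 and 33.5 CPM, and the log2 ratio was -0.79 (-1.03 to -0.55). Relb (chr7:19606217-19629438) was at 54.0 and 35.3 CPM, and the log2 ratio was -0.61 (-0.85 to -0.37), just past 1.5-fold. Nfkb2 (chr19:46304320-46312385) was at 66.1 and 44.3 CPM, for a log2 ratio of -0.58, just short of 1.5-fold.

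The IkB family genes moved with the subunits. Nfkbia (chr12:55489410-55492647) had 1485 UMIs in WT and 3035 in PyMT, or 383 and 244 CPM, and the log2 ratio was -0.65 (-0.74 to -0.56). Nfkbiz (chr16:55811375-55838899), which encodes the nuclear inhibitor-like protein IkB zeta, was at 72.0 and 45.1 CPM, and the log2 ratio was -0.68 (-0.89 to -0.46).

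Tnfaip3 (chr10:19000910-19015657), which encodes the ubiquitin-editing enzyme A20 that shuts off signalling to NF-kB, differed most of the 10. It was at 20.9 CPM in WT and 7.39 CPM in PyMT monocyte-like cells, and the log2 ratio was -1.50 (-1.95 to -1.05), from 81 and 92 UMIs. Zfp36 (chr7:28376784-28380253) encodes tristetraprolin, an RNA-binding protein that speeds the decay of cytokine messages. It was at 376 and 255 CPM, for a log2 ratio of -0.56, under 1.5-fold. Tnfaip2 (chr12:111442469-111455018), a gene first known as induced by tumour necrosis factor, was at 145 and 110 CPM, with the smallest difference, -0.40. Tnf (chr17:35199381-35202007) was at 12.4 and 7.23 CPM, and the log2 ratio was -0.78 (-1.30 to -0.24), from 48 and 90 UMIs. Thus the levels of all 10 genes pointed the same way, while 3 of them, Nfkb2, Tnfaip2 and Zfp36, fell short of the fold used for a call.

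Monocyte-like cells hold kinds that differ in Ly6c2, the gene of a surface antigen of classical monocytes, and in Ace and Treml4, genes of nonclassical monocytes. The 10 genes were therefore also read in 229 WT and 916 PyMT cells with Ly6c2 and without Ace, Treml4 or the dendritic cell genes Cd209a, Flt3 and Siglech, and in 292 and 597 cells with Ace or Treml4. This split was chosen after the data were seen. It asks for only 1 UMI, and Ly6c2 is not particular to monocyte-like cells. It was at 1365 CPM in WT and 1460 CPM in PyMT neutrophil-like cells, and at 1032 and 1510 CPM in monocyte-like cells. Whether free RNA put cells into the Ly6c2 subset was not tested. In the Ly6c2 cells 7 of 10 genes were at least 1.5-fold lower and 0 higher, where 8.84% of genes were lower and 9.26% higher. Nfkbia was at 317 and 198 CPM there, Zfp36 at 365 and 240 CPM and Tnfaip3 at 16.0 and 5.82 CPM. In the cells with Ace or Treml4 only Rel, Tnfaip3 and Tnf were at least 1.5-fold lower, 3 of 10 genes where 8.57% of genes were lower and 9.1% higher. Nfkbia was at 442 and 307 CPM there, for a log2 ratio of -0.53. All 10 log2 ratios were below 0 in each subset, although that of Tnf in the Ly6c2 cells, -0.11, had an interval from -1.07 to 0.97.

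**Figure D2:**
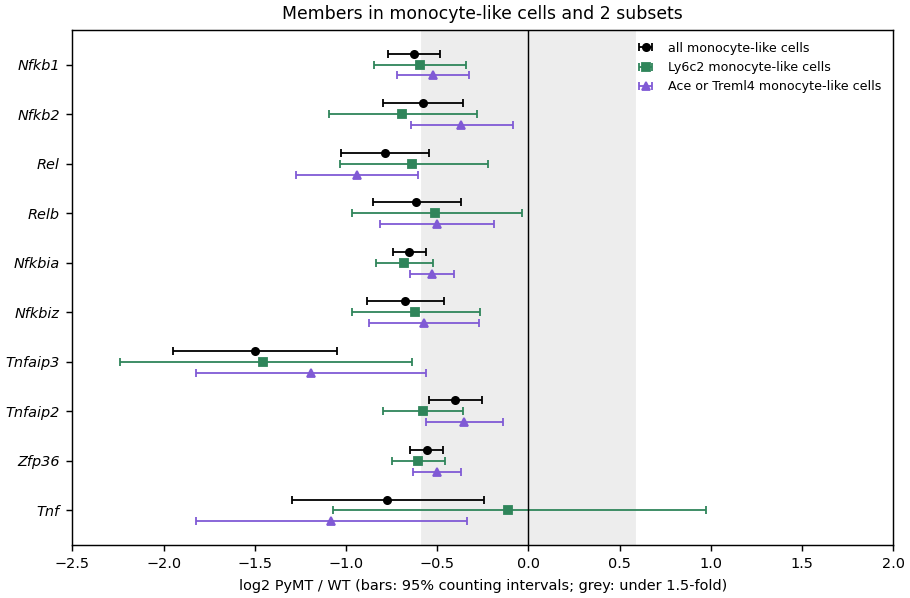
Log2 ratio of PyMT over WT (x axis) for each gene in all monocyte-like cells, in those with Ly6c2 and in those with Ace or Treml4; bars are 95% counting intervals and the grey band marks less than 1.5-fold. All points lie left of 0, and Tnfaip3 lies farthest left in each series, between -1.50 and -1.19.

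Within each library the subsets also differed from each other. Relb was at 37.1 CPM in Ly6c2 cells and 69.1 CPM in cells with Ace or Treml4 of WT, and at 26.0 and 48.8 CPM in PyMT, log2 ratios of 0.90 and 0.91. Nfkb2 was at 49.4 and 82.6 CPM in WT and at 30.5 and 64.1 CPM in PyMT. Tnfaip2 and Zfp36 differed by less than 1.5-fold between the subsets in each library. Nfkb1 differed by less, at 125 and 171 CPM in WT and 82.7 and 118.9 CPM in PyMT, log2 ratios of 0.45 and 0.52 with intervals above 0. Of the 4 subunit genes only Nfkb2 and Relb were at least 1.5-fold higher in cells with Ace or Treml4 in each library, with 7.2% of genes at least 1.5-fold higher and 4.25% lower there in WT, and 4.68% and 3.1% in PyMT.

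Other measures moved with the lower levels, in a class where 9.06% of all genes were lower and 7.84% higher. Of 20 immediate-early and heat-shock genes, which rise when cells are handled or stimulated, 10 were at least 1.5-fold lower and 0 were higher in PyMT monocyte-like cells, and their summed level was 7384 CPM in WT and 5262 CPM in PyMT. Dusp2, a phosphatase gene of that list, was at 91.7 and 27.2 CPM, and Hspa1b, a heat-shock gene, at 191 and 66.4 CPM. B cell markers were lower for 6 of 7 genes, with a summed level of 345 and 161 CPM, and dendritic cell markers summed to 91.4 and 17.4 CPM. Progenitor markers were higher for 4 of 4 genes tested, with a summed level of 40.5 and 232 CPM. No list had all of its genes at 0. The part of these measures in the result was not tested, apart from the following selections. Without the cells that also met the B cell rule, 6 of the 10 genes were lower, where 7.77% of genes were, and Nfkbia was at 377 and 243 CPM. In cells without any UMI of Cd79a, Cd79b, Cd3e, Cd209a or Flt3, 5 of the 10 genes were lower and 0 higher, where 8.05% of genes were lower and 10% higher. The log2 ratios stayed below 0 for all 10 genes under all 14 alternatives tried in this class.

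The wider pathway was read from lists of other members. Their counts stand beside the 9.06% of all genes that were lower in monocyte-like cells and the 7.84% higher. Of 27 textbook NF-kB target genes, 20 had enough UMIs in monocyte-like cells, and 11 were at least 1.5-fold lower and 3 higher, with a median log2 ratio of -0.84. The chemokine gene Cxcl10 was at 41.8 and 2.25 CPM, and the survival gene Bcl2a1a at 108 and 25.5 CPM. Bcl2a1a and Bcl2a1d are near-identical copies, so how their counts are divided is uncertain. Of 5 other subunit and IkB family genes, 2 were lower, Nfkbie at 58.4 and 23.1 CPM and Nfkbid at 25.3 and 13.1 CPM. Both encode proteins of the IkB family. Among 16 further feedback genes 3 were lower and 0 higher, including Traf1, a signalling adaptor gene induced by the pathway, at 33.6 and 8.36 CPM, and Tnip3, the gene of an A20-binding protein, at 15.8 and 3.29 CPM. Of 23 kinases and adaptors upstream of NF-kB 4 were lower and 2 higher, among them Malt1 at 23.5 and 12.7 CPM and Traf3 at 16.0 and 8.68 CPM. Receptors had 2 of 14 lower and 2 higher. Il1r2, the decoy receptor for interleukin 1, was at 1.81 and 9.88 CPM, and Tnfrsf13c, a receptor on B cells for the cytokine BAFF, at 15.5 and 4.58 CPM. These counts are descriptions, and the difference between lists was not tested.

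Neutrophil-like cells gave a different pattern. Of the 10 genes 4 were at least 1.5-fold lower in PyMT, Nfkb1, Rel, Tnfaip3 and Tnf, and 0 were higher. Since 42.6% of the 9927 genes tested were lower there and 7.11% higher, that count lay near the background. The median gene was at -0.47 and the median of the 10 genes at -0.28. With a trimmed mean of M-values in place of the class total, 18.3% of genes were lower and 16.7% higher, and of the 10 genes 2 were lower and 1 higher. That scaling moves all log2 ratios of the class by 1 amount and took the median gene from -0.47 to -0.02.

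Tnfaip3 had the largest difference, at 5.56 CPM in WT and 1.84 CPM in PyMT, and the log2 ratio was -1.59 (-1.98 to -1.22), from 169 and 89 UMIs. Tnf was at 33.7 and 16.0 CPM, and the log2 ratio was -1.07 (-1.21 to -0.94), from 1023 and 774 UMIs. Nfkb1 was at 49.8 and 25.8 CPM, and the log2 ratio was -0.95 (-1.06 to -0.84). With the trimmed mean Nfkb1, at -0.50, and Rel, at -0.26, were no longer called, and with the median of ratios Nfkb1 and Tnf, at -0.43 and -0.55, were not. Tnfaip3, Tnf and Nfkb1 lay below the median gene, while Rel, at 15.1 and 9.23 CPM, lay closer to it with a log2 ratio of -0.71. The other genes differed little by CPM. Nfkbia was at 163 CPM in WT and 162 CPM in PyMT, and the log2 ratio was 0.00 (-0.06 to 0.05), from 4944 and 7838 UMIs, and with the trimmed mean 0.45. Zfp36 was at 252 and 267 CPM, and Tnfaip2 at 75.2 and 88.4 CPM, log2 ratios of 0.09 and 0.23. With the trimmed mean Zfp36 was at 0.54 and Tnfaip2 at 0.69, and with the median of ratios both were called higher, at 0.60 and 0.75. By class total within the Camp ranges, Zfp36 was at -0.57 in Camp-high, -0.72 in Camp-mid and 0.42 in Camp-low cells. Tnfaip2 was at -0.29, -0.50 and 0.48 in these ranges. With the trimmed mean the Camp-high and Camp-mid values were -0.12 and 0.0093 for Zfp36 and 0.16 and 0.23 for Tnfaip2. Camp-low cells were 2058 of 5489 in PyMT and 56 of 3980 in WT. In the whole class Nfkb2, Relb and Nfkbiz had log2 ratios of -0.31, -0.14 and -0.25. These became 0.15, 0.32 and 0.20 with the trimmed mean. With each Camp range weighted equally they were -0.84, -0.72 and -0.36, where the Camp-low part of WT rests on 56 cells. No direction is therefore given for these genes.

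Monocyte markers moved with the neutrophil-like values. Of 10 monocyte markers, 7 were at least 1.5-fold lower in PyMT neutrophil-like cells and 9 in Camp-high cells, where Csf1r was at 29.2 CPM in WT and 8.27 CPM in PyMT. Of all genes 42.6% were lower in neutrophil-like and 41.1% in Camp-high cells. The summed level of the monocyte markers in neutrophil-like cells was 1704 CPM in WT and 1635 CPM in PyMT, most of it from Ly6c2. The 10 genes were therefore read again in 3064 WT and 3574 PyMT neutrophil-like cells with no UMI of Csf1r, Ccr2, Cd79a, Cd79b or Cd3e. Nfkb1, Tnfaip3 and Tnf were again at least 1.5-fold lower, 3 of 10 genes where 31.4% of genes were lower and 9.5% higher. Tnf was at 35.9 and 15.9 CPM in these cells, Nfkb1 at 37.6 and 21.7 CPM, and Tnfaip3 at 4.25 and 1.61 CPM. Rel was no longer called, with a log2 ratio of -0.27. Relb and Nfkb2 had log2 ratios of 0.51 and 0.26, above 0 where they had been below it. By class total, the lower Tnf, Nfkb1 and Tnfaip3 levels were thus present with and without cells that carried those transcripts, and the values of Rel, Relb and Nfkb2 were not alike in the 2 sets of cells.

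**Figure D3:**
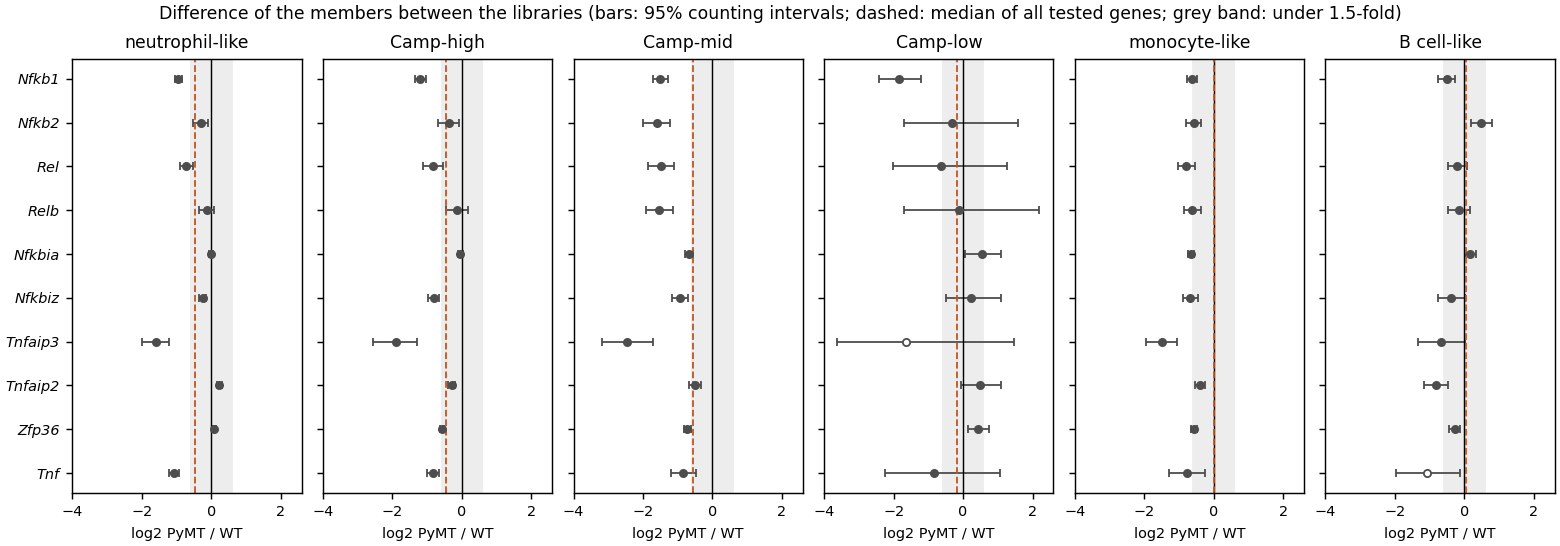
Log2 ratio of PyMT over WT (x axis) for the 10 genes in each class; bars are 95% counting intervals, dashed lines the median of all genes tested in the class, the grey band less than 1.5-fold and open points genes with under 50 UMIs. In monocyte-like cells the dashed line is at 0.01 and every point lies left of it, while in neutrophil-like cells 4 points lie left of the line at -0.47 and 6 right of it; these are class-total ratios, and with the trimmed mean Nfkb2, Relb and Nfkbiz turn from below to above 0.

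Cells of the same Camp range were compared next. Camp itself was at 70641 CPM in WT and 49996 CPM in PyMT within Camp-high cells, and at 4976 and 3067 CPM within Camp-low cells. Of the Camp-high cells, 2629 in WT and 185 in PyMT had at least 6% Camp. Ratios within a range thus still mix Camp share with library. In Camp-high cells 5 of the 10 genes were lower and 0 higher, where 41.1% of genes were lower and 3.21% higher. Nfkbiz joined the 4 genes named above, at 45.0 and 25.6 CPM, while Nfkbia stood at 154 and 148 CPM. In Camp-mid cells all but Tnfaip2 were lower, 9 of 10 where 49.2% of genes were lower and 5.31% higher, but with the trimmed mean Nfkbia and Zfp36 turned to log2 ratios of 0.049 and 0.0093 and Tnfaip2 from -0.50 to 0.23. Nfkb2 was at 26.8 and 8.80 CPM there and Relb at 25.5 and 8.85 CPM. Camp-mid cells of WT carried more monocyte transcripts than those of PyMT, with Csf1r at 148 and 25.9 CPM. Progenitor markers also differed, with summed levels of 33.8 CPM in WT and 154 CPM in PyMT Camp-mid cells. In Camp-high cells they summed to 164 and 68.6 CPM. Their part in the ratios was not tested. In the Camp-mid cells with no UMI of other lineages, 266 in WT and 1139 in PyMT, 5 of 9 genes with enough UMIs were lower, where 18.9% of genes were lower and 15.5% higher, and Relb was at 7.91 and 6.86 CPM. In Camp-high cells selected in the same way 4 of the 10 genes were lower, Nfkb1, Nfkbiz, Tnfaip3 and Tnf, where 26.8% of genes were lower and 4.9% higher.

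In Camp-low cells 3 of 9 genes with enough UMIs were lower and 0 higher, where 30.4% of genes were lower and 18.6% higher. Of these, Nfkb1 rested on more than 4 WT UMIs, at 113 CPM (26 UMIs) and 31.3 CPM (313 UMIs). Nfkbia was at 144 and 209 CPM and Zfp36 at 413 and 554 CPM. The haemoglobin gene Hba-a1 was at 4.35 CPM (1 UMI) and 90.6 CPM in the same cells, and its part in these values was not tested. Between 0.3% and 1% Camp, with 42 WT and 462 PyMT cells, Zfp36 was at 486 and 352 CPM and Nfkbia at 85.4 and 148 CPM. Below 0.3% Camp lay 1596 PyMT cells, where WT had under 20. In Camp-low cells without UMIs of other lineages, 43 in WT, 2 of 9 genes were higher, Nfkb2 from 1 WT UMI and Nfkbia at 76.5 CPM (11 UMIs) and 194 CPM, and 2 were lower, Nfkb1 and Tnf, where 25.4% of genes were higher and 19.8% lower. With the trimmed mean, the shares of genes lower and higher became 18.5% and 11.9% in Camp-high, 16.1% and 26% in Camp-mid, and 13% and 37.3% in Camp-low cells. The counts of the 10 genes lower were then 2, 5 and 1, and in Camp-low cells 4 were higher.

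Within a library, the genes could be followed along the Camp share without the difference between pools. In PyMT, 7 of the 10 genes were at least 1.5-fold higher in Camp-low than in Camp-high cells and 1, Tnf, was lower, where 26.7% of 7875 genes were higher and 20.7% lower. Zfp36 was at 159 CPM in Camp-high, 227 CPM in Camp-mid and 554 CPM in Camp-low cells, with an interval of the log2 ratio between the last and the first from 1.74 to 1.87. Nfkbiz was at 25.6, 34.8 and 76.8 CPM, and the log2 ratio was 1.59 (1.42 to 1.75). Tnfaip2 was at 57.9, 76.5 and 170 CPM, and the log2 ratio was 1.56 (1.45 to 1.67). These 3 genes stood higher at each step down in Camp, with Poisson intervals that did not overlap, and Tnfaip3, at 1.34 and 2.80 CPM in Camp-high and Camp-low cells, was also among the 7. Between Camp-high and Camp-mid cells 0 of the 10 genes differed 1.5-fold in PyMT, where 11.2% of genes were higher in Camp-mid cells and 2.62% lower, whereas 8 were higher in Camp-mid cells of WT, which carried Csf1r at 148 CPM against 29.2 CPM in Camp-high cells, where 28.5% of genes were higher and 7.83% lower. The subunit genes differed less between Camp-low and Camp-high cells, with log2 ratios of 0.65 for Nfkb1, 0.89 for Nfkb2, 0.55 for Rel and 0.75 for Relb.

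Tnf ran the other way. It was at 19.4 CPM in Camp-high, 15.8 CPM in Camp-mid and 9.70 CPM in Camp-low cells of PyMT, with an interval of the Camp-low over Camp-high log2 ratio from -1.34 to -0.68. In WT it was at 34.4, 28.4 and 17.4 CPM, the last from 4 UMIs. Tnf encodes tumour necrosis factor, a cytokine that signals to NF-kB through its own receptors. It was the only one of the 10 genes called lower in Camp-low cells of either library, although in WT its interval reached from -2.86 to 0.38.

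Finer bins showed where the PyMT rise lay. Between 4% and 6% Camp and between 0.3% and 1% Camp, Nfkbia was level, at 149 and 148 CPM, and below 0.3% it was at 239 CPM in 1596 cells. Zfp36 was at 161, 352 and 651 CPM in the same 3 bins, Tnfaip2 at 59.4, 110 and 199 CPM, and Nfkbiz at 26.2, 46.7 and 91.2 CPM. Nfkb2 was at 7.59, 5.87 and 17.7 CPM and Relb at 7.25, 5.87 and 15.1 CPM. Nfkbia, Nfkb2 and Relb thus stood higher only in the lowest bin, whereas Zfp36 and Tnfaip2 climbed over the whole range. Cells of the lowest bin were shallower, with a median of 3627 UMIs against 11660 between 4% and 6%, and monocyte markers other than Ly6c2 summed to 322 CPM there, 225 to 271 CPM in the bins between 0.3% and 4% and 55.4 CPM between 4% and 6%. In the 1036 cells of the lowest bin with no UMI of other lineages Nfkbia was at 223 CPM, Nfkb2 at 14.8 CPM and Relb at 12.3 CPM. With cells thinned to at most 1000 UMIs the Camp-low over Camp-high log2 ratios were 1.89 for Zfp36, 1.46 for Nfkbiz and 1.79 for Tnfaip2. In cells with no UMI of other lineages they were 1.82, 1.42 and 1.55. There 4 of the 10 genes were higher, where 23.4% of genes were higher and 29.3% lower, with Relb at 0.49 and Nfkb1 at 0.48. Tnfaip3, with 17 UMIs in Camp-high and 13 in Camp-low cells of this selection, fell under the UMI minimum.

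**Figure D4:**
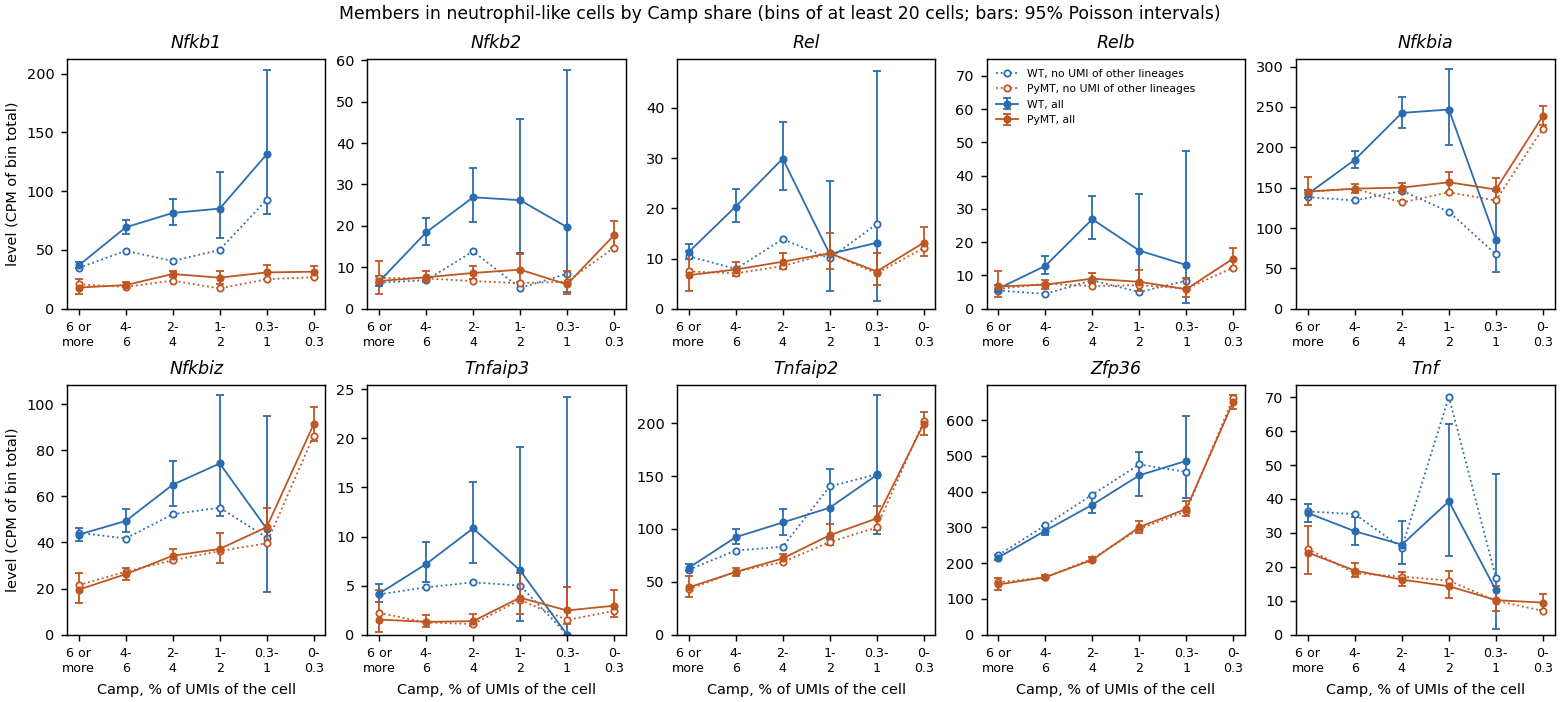
Level of each gene in CPM of the bin total (y axis, from 0) in neutrophil-like cells by the Camp share of the cell (x axis, high to low), for all cells with 95% Poisson intervals and for cells with no UMI of Csf1r, Ccr2, Cd79a, Cd79b or Cd3e. In PyMT, Zfp36 climbs from 161 CPM at 4% to 6% Camp to 651 CPM below 0.3%, and Tnf falls from 18.9 to 9.46 CPM; WT had under 20 cells below 0.3%.

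In WT, 6 of the 10 genes were at least 1.5-fold higher in the 56 Camp-low than in the Camp-high cells and 1 was lower, where 25.6% of genes were higher and 16.2% lower. Of the 6, Nfkb1, Tnfaip2 and Zfp36 had intervals above 0, with Zfp36 at 413 and 236 CPM. Nfkb2, Relb and Tnfaip3 had at most 4 UMIs in the Camp-low cells. With the trimmed mean 1 of the 10 remained higher in WT and 5 in PyMT, where 17.1% and 21.2% of genes were higher and 23.8% and 28.2% lower.

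The wider pathway in neutrophil-like cells did not follow a single direction, and the counts of lower genes below stand beside the 42.6% of all genes that were lower there. The share of all genes that were higher was 7.11%. Camp-low cells were 2058 of 5489 in PyMT and 56 of 3980 in WT, so counts over the whole class mix unlike Camp ranges. Receptors stood higher in PyMT for 9 of 14 tested genes and lower for 2. Il1r2 was at 16.7 and 60.9 CPM, and the toll-like receptor genes Tlr4 and Tlr6 were at 6.91 and 15.7 CPM and at 4.51 and 11.4 CPM. Cd40, a costimulatory receptor gene, was at 7.14 and 2.05 CPM. By Camp range, 2 of 13 receptors were higher and 3 lower in Camp-high cells, and 1 of 13 higher and 4 lower in Camp-mid cells. In Camp-low cells 10 of 11 were higher and 0 lower. Of all genes 3.21%, 5.31% and 18.6% were higher in these ranges and 41.1%, 49.2% and 30.4% lower. Over the whole class 2 of 24 kinases and adaptors were higher and 7 lower. Myd88, the adaptor of toll-like and interleukin 1 receptors, was at 39.4 and 106.9 CPM, while Irak1, Map3k7 and Tab3, genes of the kinase steps downstream of it, were at 16.6 and 7.16 CPM, 6.78 and 3.21 CPM, and 2.63 and 1.20 CPM.

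Bcl3, one of the 5 other subunit and IkB family genes, encodes a nuclear partner of p50 and p52. It was at 9.90 CPM in WT and 40.8 CPM in PyMT, for a log2 ratio of 2.04. Nfkbie and Nfkbid were lower, at 11.5 and 6.77 CPM and at 15.9 and 10.4 CPM, and Nfkbib was not called, at 22.1 and 27.7 CPM. With the trimmed mean Nfkbie and Nfkbid would lie within 1.5-fold and Nfkbib would be higher by more than that. Of 16 further feedback genes 2 were higher and 3 lower, with Zfp36l1, a relative of Zfp36, at 6.22 and 20.5 CPM, Tnip2 at 2.80 and 5.03 CPM, Traf1 at 4.18 and 1.61 CPM and Tnip3 at 1.71 and 0.103 CPM. Target genes split into 7 higher and 8 lower of 22. Il1b, the interleukin 1 beta gene, was at 27.7 and 466 CPM, whereas Cxcl10 was at 9.08 and 1.26 CPM, Bcl2a1d at 6.78 and 1.20 CPM and Bcl2a1a at 13.4 and 2.67 CPM. Of 19 immediate-early genes 3 were higher and 8 lower, with Dusp1 at 105 and 313 CPM, Fosb at 20.9 and 6.12 CPM, Hspa1a at 145 and 27.9 CPM and Hspa1b at 26.1 and 4.49 CPM. Target genes by Camp range had 1 of 22 higher and 10 lower in Camp-high cells. They had 2 of 20 higher and 12 lower in Camp-mid, and 4 of 17 higher and 5 lower in Camp-low cells. Immediate-early genes had 0 of 19 higher and 12 lower in Camp-high cells. They had 0 of 19 higher and 14 lower in Camp-mid, and 7 of 18 higher and 4 lower in Camp-low cells.

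B cell-like cells showed small and mixed differences that depended on which cells were taken. Of 9 genes with enough UMIs 2 were at least 1.5-fold lower in PyMT, Tnfaip2 at 66.3 and 37.5 CPM and Tnfaip3 at 16.3 and 10.3 CPM, and 0 were higher, where 7.43% of genes were lower and 9.85% higher. The interval of Tnfaip3, from -1.34 to 0.03, reached 0. Nfkb2, whose product p100 is processed in B cells in response to BAFF and CD40, was at 60.5 and 85.1 CPM, and the log2 ratio was 0.49 (0.19 to 0.80). Monocyte markers moved with this class too, with 6 of 9 lower and a summed level of 1423 CPM in WT and 908 CPM in PyMT, as did natural killer cell markers, with a summed level of 129 and 27.2 CPM. The haemoglobin genes Hba-a1 and Hbb-bs were at 4.74 and 971 CPM and at 6.84 and 1129 CPM in this class. Their part in the result was not tested.

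Without the cells that also met the monocyte rule, a selection chosen after the data were seen, 304 WT and 1081 PyMT cells were left. There 2 of 9 genes were at least 1.5-fold higher, where 12.9% of genes were, and 0 were lower, where 4.19% were. Nfkb2 was at 47.4 and 90.1 CPM, and the log2 ratio was 0.93 (0.54 to 1.34). Nfkbia was at 164 and 278 CPM, with a log2 ratio of 0.76 (0.55 to 0.98). Rel was at 87.9 and 78.3 CPM, Relb at 53.5 and 61.5 CPM and Zfp36 at 186 and 183 CPM, none of them called. The count of lower genes in B cell-like cells was therefore 2 with, and 0 without, the cells that met both rules.

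The counts of the other lists in B cell-like cells stand beside the 9.85% of all genes that were higher there and the 7.43% lower. The kinases and adaptors had 2 of 22 higher, with Myd88 at 28.4 and 50.8 CPM. They had 2 lower, with Tab2 at 64.2 and 38.7 CPM. Receptors had 3 of 13 higher and 3 lower, with Il1r2 at 1.58 and 10.7 CPM and Tlr7 at 27.9 and 9.08 CPM. Target genes had 3 of 18 higher and 4 lower, among them the chemokine genes Ccl4 at 57.9 and 3.63 CPM and Ccl3 at 54.2 and 8.07 CPM. Feedback genes had 2 of 15 higher, Rnf11 at 15.3 and 26.4 CPM and Tollip at 8.42 and 13.7 CPM, and 1 lower. The interval of the Tollip log2 ratio reached from -0.10 to 1.59. None of the 5 other subunit and IkB family genes was called, with Nfkbie at 41.1 and 56.9 CPM and Bcl3 at 26.9 and 32.5 CPM. Of 20 immediate-early genes 1 was higher and 7 lower, with Atf3 at 19.0 and 4.24 CPM and Hspa1b at 84.2 and 19.8 CPM.

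The levels of each gene were put in order over the 10 groups, the 5 classes in the 2 libraries. Nfkb1, Nfkbia and Tnfaip3 were highest in WT monocyte-like cells. For Nfkb1 and Nfkbia the interval there did not overlap that of the next group, B cell-like cells of WT at 113 CPM and of PyMT at 275 CPM. The Nfkb1 interval did overlap that of the 56 WT Camp-low cells, also at 113 CPM, and the Tnfaip3 interval overlapped that of WT B cell-like cells at 16.3 CPM. Rel and Relb were highest in B cell-like cells, and the WT and PyMT intervals overlapped, for Relb also with that of WT monocyte-like cells. Nfkb2 was highest in PyMT B cell-like cells. Nfkbiz, Tnfaip2 and Zfp36 were highest in PyMT Camp-low neutrophil-like cells, although for Nfkbiz the interval overlapped that of WT monocyte-like cells at 72.0 CPM and for Tnfaip2 that of WT Camp-low cells at 122 CPM.

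Tnf alone was highest in Camp-high neutrophil-like cells, at 34.4 CPM in WT with an interval that overlapped that of Camp-mid cells, and lowest in B cell-like cells of PyMT, at 5.04 CPM. In monocyte-like cells it stood at 36.8% of the neutrophil-like level in WT and 45.2% in PyMT. S100a8, an abundant neutrophil transcript whose UMIs in other classes can come from free RNA, stood at 2.78% and 4.07% there. It was also one of the class markers held under a limit in these cells. Monocyte-like over neutrophil-like levels in WT were at least 1.5-fold higher for 8 of the 10 genes and lower for Tnf, where 60.7% of genes were higher and 14.2% lower. In PyMT 6 were higher and 1, again Tnf, was lower, where 70.8% and 10.4% of genes were. B cell-like over neutrophil-like levels were higher for 5 genes and lower for Tnf in WT, where 56.8% and 16.6% of genes were, and higher for 6 and lower for Tnf and Tnfaip2 in PyMT, where 66.2% and 15.2% were. Monocyte-like over B cell-like levels were higher for Nfkbia, Nfkbiz, Tnfaip2 and Zfp36 and lower for 0 genes in WT, where 24.6% and 14.6% of genes were. In PyMT they were higher for Tnfaip2 and lower for Nfkb2, Rel and Relb, where 26% and 24.9% of genes were. In WT these 3 subunit genes differed by less than 1.5-fold between the 2 classes, with the 71 cells that met both rules counted in each. Without those 71 cells, WT Rel was at 53.6 CPM in monocyte-like and 87.9 CPM in B cell-like cells, more than 1.5-fold apart. Nfkb2 was then at 61.9 and 47.4 CPM and Relb at 48.5 and 53.5 CPM in WT. The difference between the libraries was not tested.

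Pearson's r of log2(CPM + 1) was computed for each pair of genes over the 10 groups. The groups share 2 libraries, so these values are descriptions. For Nfkb2 and Relb r was 0.99, for Rel and Relb 0.98, for Nfkbiz and Zfp36 0.96 and for Nfkb1 and Tnfaip3 0.96. For Nfkb1 and Nfkbia, both highest in WT monocyte-like cells, r was 0.65. Tnf had r between -0.65 and 0.13 with the other 9 genes. Among 8534 genes compared, the most like Zfp36 were Kctd12, Btg2 and Gdpd3 (0.98 to 0.96) and the most like Nfkbiz were Kctd12, Cmip and Fos (0.98 to 0.92). The most like Tnfaip3 were Ms4a7, Bcl2a1d and Bcl2a1a, each at 0.98. Those nearest Nfkb1 were Mogs, Fam26f and Lacc1, those nearest Nfkb2 Serinc3, Slc4a1ap and Galnt11, those nearest Rel Rps27, Alkbh1 and Phrf1, and those nearest Relb Fgd2, Clec2i and Lat2, all at 0.98 or above. Nfkbia was nearest to Mthfsl, St3gal1 and Zmiz1 (0.96 to 0.94), Tnfaip2 to Fgr, Slc11a1 and Pik3r5 (0.96 to 0.95), and Tnf to Gramd1b, Tnfsf13b and Rasl11b (0.98 to 0.96).

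Nfkb1 overlaps the gene model Gm43430 on the same strand, so reads of the shared bases could add to or be left out of its count. Nfkb2, Tnfaip2 and Zfp36 overlap genes on the opposite strand only. The part of these overlaps in the counts was not tested. In pooled libraries a lower CPM in a class may reflect less RNA of the gene in each cell or fewer cells that express it. It may also reflect more RNA of other genes in the class total. CPM of summed UMIs cannot tell these apart.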

How the data were processed

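The deposited files hold raw UMI counts per gene and cell, per the file contents; per the submitters' processing notes the authors used Cell Ranger 2.1.0 and the mm10 build. No cells were removed and doublets were not removed. Counts were summed per library and class in Python 3.11.15 with numpy 2.4.6 and scipy 1.17.1, and scaled to CPM. Levels have exact Poisson and ratios exact conditional 95% intervals. Where a sum was 0, the ratio used a floor of 3 counts. With 1 library per condition no p-value was computed. Groups follow the submitters' titles.

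The 10 genes and the other lists were chosen with earlier results of these data known. Named genes are all 10 in every class, from each other list the 4 tested genes with the largest log2 ratios in the neutrophil-like class and 2 in each further class, and the 3 genes most correlated with each over the groups (at least 200 UMIs). Csf1r, S100a8 and single list genes outside this rule were named after their values were seen. Positions are from GENCODE M21 on GRCm38, and promoter sequences from RefSeq on GRCm38.p6. Calculations were tested on simulated counts. Alternatives were 3 other scalings, equal weight per cell, thinning, cell filters, class limits, cells without UMIs of other lineages, equal weight of the Camp strata and UMI minimums of 10 and 200; the selections by Ly6c2, by Ace or Treml4 and without cells of both the monocyte and B cell rule were chosen after the data were seen. Cells with 5 to 10% S100a8 and S100a9, near the class limits, numbered 65 in WT and 238 in PyMT, and neutrophil-like cells with 3 to 5% Camp 602 and 1718. Immunoglobulin and T cell receptor genes were left out of the correlation. The summed level of 1 marker list is not reported here.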

Additional observations from a re-analysis of the deposited data

Results flagged for a closer look

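A few of the 10 genes went one way in one class and the other way in another, with counting intervals on opposite sides of 0. With 1 library per condition these differences between classes were not tested. Nfkb2 had a log2 ratio of PyMT over WT of 0.49 in B cell-like cells, and of -0.38 in Camp-high, -1.61 in Camp-mid and -0.58 in monocyte-like cells. Nfkbia had 0.54 in Camp-low and 0.18 in B cell-like cells, and -0.68 in Camp-mid and -0.65 in monocyte-like cells. Zfp36 had 0.42 in Camp-low cells, and -0.57 in Camp-high, -0.72 in Camp-mid, -0.56 in monocyte-like and -0.28 in B cell-like cells. With the trimmed mean the Camp-high value of Nfkb2 was 0.07 and the Camp-mid values of Nfkbia and Zfp36 were 0.049 and 0.0093, so these turned direction. The Camp-low values rest on 33 WT UMIs of Nfkbia and 95 of Zfp36. They also compare unlike Camp shares, since 1596 PyMT cells lay below 0.3% Camp, where WT had under 20 cells. Between 0.3% and 1% Camp, Zfp36 was lower in PyMT, at 486 CPM in WT and 352 CPM in PyMT. Nfkbia was higher there, at 85.4 and 148 CPM.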

How the results depend on the processing

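No paired analysis was possible because each condition is 1 library. The counts of genes at least 1.5-fold higher or lower were recomputed under each alternative. The share of all genes was not computed for equal weight per cell or of the Camp strata, thinning, the UMI minimums, no UMI of Cd79a or Cd79b, or without the deepest cells. In neutrophil-like cells, 1 and 2 genes were higher with the trimmed mean of M-values and the median of ratios, against 0. Equal weight per cell gave 1 higher and thinned cells 1. Lower were 2 and 1 with those 2 scalings and 6 with equal weight of the Camp strata, against 4. Of all genes 16.7% and 19.2% were higher and 18.3% and 16% lower with those 2 scalings. In Camp-high cells 2 and 2 were lower with the same scalings, against 5, where 18.5% and 16.7% of all genes were lower. In Camp-mid cells 5 were lower with each of the 3 other scalings and 5 in cells without UMIs of other lineages, against 9. Of all genes 16.1% were lower with the trimmed mean, 15.2% with the median of ratios and 27.4% without the 50 top genes. In Camp-mid cells without UMIs of other lineages 18.9% were lower. Nfkbia and Zfp36 there changed sign, to 0.049 and 0.0093 with the trimmed mean and 0.085 and 0.045 with the median of ratios, as did Tnfaip2, which was not called, to 0.23 and 0.27, and Rel to 0.12 with thinned cells. In Camp-low cells 4, 4, 1, 3, 1, 1, 2 and 2 genes were higher with the trimmed mean, the median of ratios, a total that leaves out the 50 top genes, each cell weighted equally, thinning, no UMI of Cd79a or Cd79b, no UMI of other lineages and without the deepest 10% of cells, against 0. Of all genes 37.3%, 38% and 21.3% were higher with the first 3, and 25.4% in cells with no UMI of other lineages. Lower in Camp-low cells were 1, 1, 1 and 1 with the first 2 scalings, without the deepest cells and at 200 UMIs, against 3. With those 2 scalings 13% and 12.5% of all genes were lower. In B cell-like cells 1 was higher with equal weight per cell and 1 without the deepest cells, and 2 in cells that were not monocyte-like, against 0; 1, 1 and 0 were lower without the deepest cells, at 200 UMIs and in cells that were not monocyte-like, against 2. In the B cell-like cells that were not monocyte-like 12.9% of all genes were higher and 4.19% lower. In monocyte-like cells 3 were lower among cells with Ace or Treml4, where 8.57% of all genes were lower, against 7, and the other 13 alternatives gave 5 to 9. Camp-low over Camp-high counts were 1 and 2 in WT with the trimmed mean and the median of ratios, against 6. In PyMT the count was 4 without UMIs of other lineages, where Tnfaip3 fell under the UMI minimum, against 7. Tnfaip3 in WT changed sign to -0.62 with equal weight per cell. The shares of all genes higher were 17.1% and 17.5% in WT with those 2 scalings, and 23.4% in that PyMT selection. The cause of these shifts was not tested. The Camp-low comparison rests on 56 WT cells.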
